A study of Mus musculus with 6 samples.

Results

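The 10 genes described here act in extracellular matrix breakdown, and they were followed across 6 arrays of cultured mouse keratinocytes: the matrix metalloproteinase genes Mmp2, Mmp3, Mmp9, Mmp10, Mmp13, Mmp14 and Mmp27 and the inhibitor genes Timp1, Timp2 and Timp3. They were found by gene symbol among 19938 measured genes, all 10 were present, and each had 1 probe set. Probe sets were chosen by mean intensity over the 6 arrays, which here left no choice, and the gene list was selected on earlier results of these arrays, so that the values below describe the genes and their calls are no independent evidence. The cells came from the skin of C57BL/6 embryos at E18.5, were kept for 2 to 5 days in culture and for another 3 to 5 days with added calcium, which makes keratinocytes differentiate, and all arrays are labelled female. Control cells carried Ovol2flox/+ with either Ovol1+/- or K14-Cre, so that a control could lack 1 copy of Ovol1 or, in cells with Cre, 1 copy of Ovol2. Ovol1 KO cells were Ovol1-/-, and DKO cells were Ovol1-/- and Ovol2flox/- with K14-Cre, a recombinase driven from the keratin 14 promoter of basal keratinocytes. Every group had 2 arrays, and every array held RNA of 2 pooled mice. The labels call the arrays of a group biological replicates, but do not say whether the cultures were prepared separately, so that p-values measure the spread between these arrays.

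Matrix metalloproteinases are zinc-dependent endopeptidases that are secreted, or anchored in the membrane, as inactive proenzymes and cut collagens, laminins, proteoglycans and cell surface proteins. Timps bind the active site and block it, and Timp2 also helps the membrane enzyme Mmp14 to activate the Mmp2 proenzyme. In skin these enzymes are known from wound edges, where migrating keratinocytes make Mmp10, and from hair follicle growth and blistering disease. The products of Ovol1 and Ovol2 are zinc finger transcription factors found in epithelia, and the comparisons address what their loss does to gene expression in differentiating cells.

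Levels below are log2(intensity + 16) after quantile normalization. The lowest possible level is 4, and 10% of all gene levels lay below 6.00. There is no detection call, so that low levels were not separated from background. Differences are log2 differences on the same scale, which understates changes of dim genes, and genes with a limma p below 0.05 after adjustment over all genes count as called. Across genes the arrays correlated at 0.935 to 0.9937. The targeted genes were measured on the arrays that should lack them at levels near those of control: Ovol1 averaged 10.06 in control, 10.38 in Ovol1 KO and, for DKO, 10.59, and Ovol2 lay at 8.12 and 8.82 in control and 8.71 and 8.32 in DKO. Each has 1 probe set, whose place relative to the deleted part is not given in the sources used here, so that this checks no label. Xist, the RNA of the inactive X chromosome, lay between 4.59 and 4.71 in both control arrays and Ovol1 KO 1 and between 11.97 and 12.26 in Ovol1 KO 2 and both DKO arrays, against the female label of all 6. Kdm5d, a Y-linked gene, lay at 14.70 on 3 arrays, and so did Krt1 on DKO 1. Quantile normalization gives equal ranks equal values, so this sameness is not a measured one. Kdm5d split the arrays as Xist did, at 14.70 on the first 3 and 7.50 to 7.64 on the others. A difference between DKO and control therefore cannot be told apart from one between these kinds of array, while DKO against Ovol1 KO 2 compares arrays with like Xist levels and is given below for the members that were called.

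Mmp13, Mmp3, Mmp10 and Mmp27 belong to 1 gene cluster. In the RefSeq gene table of GRCm38.p6, 10 metalloproteinase genes follow each other on chromosome 9 in the order Mmp13, Mmp12, Mmp1b, Mmp3, Mmp1a, Mmp10, Mmp8, Mmp27, Mmp20 and Mmp7, with 0 other protein-coding genes between them. The other 6 members lie elsewhere: Mmp9 on chromosome 2, Mmp2 on 8, Timp3 on 10, Timp2 on 11, Mmp14 on 14 and Timp1 on X. RefSeq promoter windows, running from 250 bases before to 50 bases after the gene start, were found for 8 of the 10 members, all but Mmp2 and Mmp9. The 200 bases before the start are printed for the 4 cluster members, because these neighbouring genes gave different values, and for Timp2, the member called lower in DKO. Each is in GRCm38.p6 and reads 5′ to 3′ on the gene's strand: Mmp13 is chr9:7272314-7272513, Mmp3 chr9:7445622-7445821, Mmp10 chr9:7502142-7502341 and Mmp27 chr9:7571196-7571395, all on the plus strand, and Timp2 is chr11:118355412-118355611 on the minus strand. Capitals mark AP-1 matches (TGANTCA), the TATA box letters TATAAA and the E-box CAGGTG that Zeb and Snail factors bind.
Mmp13: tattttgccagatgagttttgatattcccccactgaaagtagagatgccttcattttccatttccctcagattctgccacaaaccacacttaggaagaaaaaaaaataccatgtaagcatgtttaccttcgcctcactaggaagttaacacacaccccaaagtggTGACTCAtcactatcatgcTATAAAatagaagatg
Mmp3: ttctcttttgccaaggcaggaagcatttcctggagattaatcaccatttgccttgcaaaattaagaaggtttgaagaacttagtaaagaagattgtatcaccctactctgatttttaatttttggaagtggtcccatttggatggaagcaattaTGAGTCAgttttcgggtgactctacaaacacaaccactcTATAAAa
Mmp10: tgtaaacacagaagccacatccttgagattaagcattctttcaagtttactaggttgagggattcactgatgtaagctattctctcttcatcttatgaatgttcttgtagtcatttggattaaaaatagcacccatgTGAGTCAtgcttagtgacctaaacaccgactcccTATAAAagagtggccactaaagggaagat
Mmp27: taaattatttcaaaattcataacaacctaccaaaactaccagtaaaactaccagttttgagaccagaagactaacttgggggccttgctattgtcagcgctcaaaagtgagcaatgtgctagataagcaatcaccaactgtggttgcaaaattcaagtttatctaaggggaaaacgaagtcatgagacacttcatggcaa
Timp2: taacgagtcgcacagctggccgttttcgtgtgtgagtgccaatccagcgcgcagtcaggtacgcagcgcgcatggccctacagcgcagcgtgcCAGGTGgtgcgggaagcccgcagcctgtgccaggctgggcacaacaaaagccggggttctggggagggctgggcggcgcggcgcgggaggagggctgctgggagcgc

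AP-1, the dimer of Fos and Jun proteins that is the classic activator of stromelysin and collagenase genes, has 1 match in each of the Mmp13, Mmp3 and Mmp10 windows. Its first base lies 35 bases before the Mmp13 start, 46 before that of Mmp3 and 63 before that of Mmp10, and each is followed by TATAAA at 16, 7 and 29 bases before the start. Mmp27 has neither. Both strands were searched, and AP-1 letters occur in 7.81% and TATAAA in 13.6% of 32851 promoter windows of this length. Over the whole cluster 8 of 10 genes have an AP-1 match in at least 1 window, and the 2 without one are the neighbours Mmp8 and Mmp27. Timp2 has CAGGTG starting 107 bases before its start, Timp3 has the same E-box on the other strand (CACCTG) 232 bases before, and Mmp10 has it 9 bases inside the gene, against 20.2% of all windows. The Ets letters AGGAAG, present in 35.4% of windows, occur in those of Mmp13, Mmp3, Mmp14, Timp1 and Timp3. The Ovol core CCGTTA, present in 2.76% of windows, occurs in 0 of the 10 cluster genes' windows and in none of the other 4 members' windows searched. No 2 matches in a member's window overlap. A match describes letters and not a bound site, and a missing match says nothing about the factor.

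**Figure D1:**
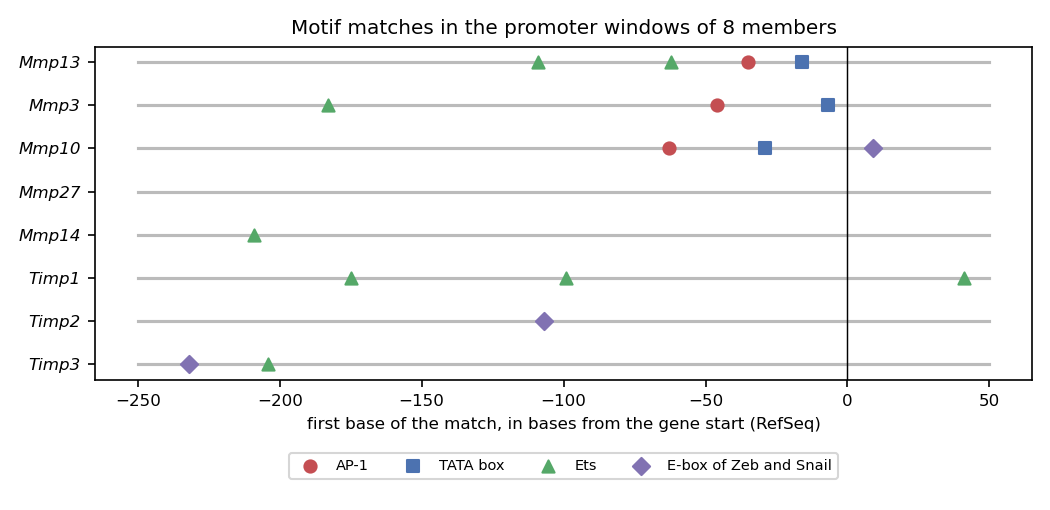
Motif matches in the RefSeq promoter windows of 8 members, by the distance in bases of the first base of each match from the gene start; each grey line is a window and each symbol a match on either strand. Mmp13, Mmp3 and Mmp10 carry an AP-1 match at 35, 46 and 63 bases before the start with a TATA box after it, while the Mmp27 line is empty.

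In DKO cells 4 of the genes were called, and a gene that was not called may still have changed. Against control, Mmp27, Mmp3 and Mmp2 were higher in DKO and Timp2 was lower, so that 3 of 10 members were called higher and 1 lower. Over all genes 3.2% were called, 0.943% as higher and 2.26% as lower. The DKO and control arrays did not overlap in 6 of 10 members, 4 above and 2 below, against 44.6% of all genes, 23.1% above and 21.5% below. The median difference of the members was 0.62, beside 0.02 over all genes. Nothing is read from these shares, as the genes were selected with this comparison known. In bulk RNA, fewer cells of a type and less RNA per cell cannot be told apart.

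**Figure D2:**
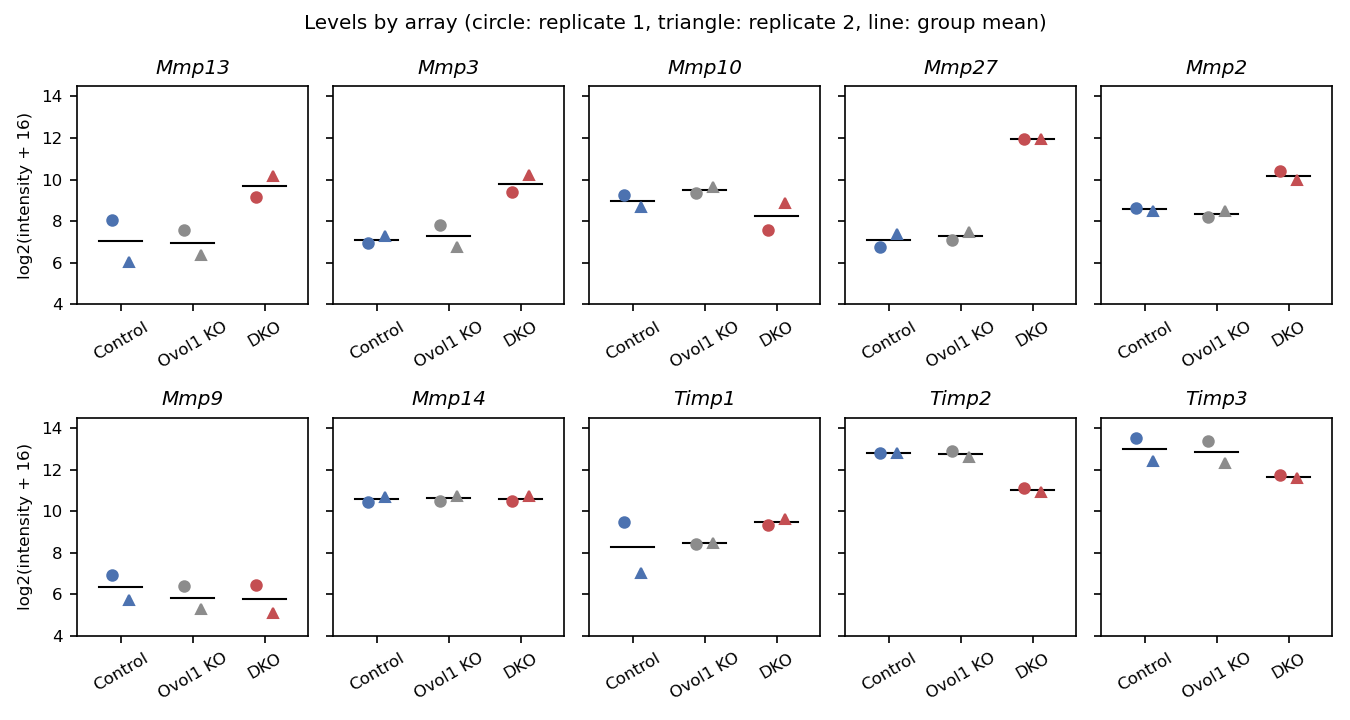
Level of each member, as log2(intensity + 16), in the 2 arrays of control, Ovol1 KO and DKO; circles are replicate 1, triangles replicate 2 and lines the group means. Both DKO arrays lie near 11.95 for Mmp27 against at most 7.48 in the other 4 arrays, and Timp2 falls from 12.58 or more to 11.11 and 10.94.

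Mmp27, a metalloproteinase of the stromelysin type whose substrates are little known, changed most. Its levels were 6.78 and 7.38 in control 1 and 2, 7.09 and 7.48 in Ovol1 KO 1 and 2 and, for DKO 1 and 2, 11.95 and 11.94. The 4 arrays with Ovol2 intact or partly intact were alike and low, and the DKO arrays stood far above all of them. In DKO against control the difference was 4.87 (SE 0.26, limma adjusted p = 0.00067), a 29.3-fold rise. Against Ovol1 KO it was 4.66 (SE 0.26, adjusted p = 0.0008), and against Ovol1 KO 2 alone, the array with a like Xist level, 4.49 (adjusted p = 0.02). The 2 Ovol1 KO arrays, 7.38 apart in Xist and unlike in replicate number, were 0.40 apart in Mmp27. In Mmp3, Mmp9, Mmp13 and Timp3 they were 1.05 to 1.23 apart, and the part of Xist was not tested. Without any one array the rise over control stayed between 4.55 and 5.17 and was called each time. With Xist level as a covariate it was 4.47 (adjusted p = 0.098), and over all 16 alternatives the adjusted p ran from 0.00011 to 0.098 against control and from 3.5e-05 to 0.023 against Ovol1 KO.

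Mmp3, or stromelysin 1, cuts proteoglycans, laminin and fibronectin and activates other proenzymes. It lay at 6.94 and 7.27 in control, at 7.82 and 6.78 in Ovol1 KO and, for DKO, at 9.39 and 10.20. DKO arrays were above all others, and the arrays of a group lay 0.34 to 1.05 apart. Over control it rose by 2.69 (SE 0.40, adjusted p = 0.02), which is 6.46-fold. Over Ovol1 KO the rise was 2.50 (SE 0.40, adjusted p = 0.032). The call over control was lost without DKO 1 (3.07, adjusted p = 0.05, just above the threshold before rounding) and without DKO 2 (2.32, adjusted p = 0.091). That over Ovol1 KO was lost without any 1 of the 4 arrays compared, with differences from 1.97 to 3.03, the latter being that against Ovol1 KO 2 alone (adjusted p = 0.058). With Xist as a covariate the differences were 3.74 (adjusted p = 0.2) and 3.04 (adjusted p = 0.069). Over the alternatives the adjusted p ran from 0.012 to 0.2 and from 0.0079 to 0.14.

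Mmp13 is the main interstitial collagenase of mice. Levels were 8.07 and 6.04 in control, 7.59 and 6.36 in Ovol1 KO and, for DKO, 9.19 and 10.19. Every DKO array was higher than every other array, yet the control arrays lay 2.04 apart. The DKO mean exceeded the control mean by 2.63 (SE 0.71, adjusted p = 0.13), a size close to that of Mmp3, and the Ovol1 KO mean by 2.72 (SE 0.71, adjusted p = 0.14). Neither was called. Without control 1 the difference from control was 3.63 and was called (adjusted p = 0.0089), and the one from Ovol1 KO was called without control 1 (2.70, adjusted p = 0.0093) or control 2 (2.73, adjusted p = 0.0094). The adjusted p of all alternatives ran from 0.0089 to 0.68 and from 0.0093 to 0.49.

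Mmp10, or stromelysin 2, is close to Mmp3 in sequence and function. It measured 9.26 and 8.70 in control, 9.36 and 9.66 in Ovol1 KO and, for DKO, 7.60 and 8.86. Ovol1 KO arrays were the highest, and DKO 2 lay between the control arrays. The difference was -0.75 in DKO against control (SE 0.42, adjusted p = 0.51) and -1.28 in DKO against Ovol1 KO (SE 0.42, adjusted p = 0.24), opposite in sign to that of Mmp3. Without DKO 2 these became -1.41 and -1.95, and without DKO 1 they became -0.11 and -0.64, none of them called.

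Over the whole cluster 3 of 10 genes were called higher in DKO against control and 0 lower, beside 0.943% and 2.26% of all genes: Mmp27, Mmp3 and Mmp8. Mmp27 and Mmp3 belong to the genes selected with this comparison known, so nothing is read from this count. Mmp8, the collagenase of neutrophils, is the direct neighbour of Mmp27 and was not among the 10 genes. It lay at 5.59 and 5.52 in control, 5.32 and 5.57 in Ovol1 KO and, for DKO, 6.71 and 6.27. All 6 levels are near the low end of the scale. It exceeded control by 0.93 (SE 0.18, adjusted p = 0.048) and Ovol1 KO by 1.05 (SE 0.18, adjusted p = 0.043) in DKO. The first call was lost with any 1 of the 6 arrays left out (0.73 to 1.14, adjusted p from 0.055 to 0.19, and 0.011 to 0.79 over all alternatives). The second was lost without Ovol1 KO 1 (0.93), Ovol1 KO 2 (1.17) or DKO 1 (0.84). Mmp12, the macrophage elastase next to Mmp13, measured 8.03 and 6.96 in control, 7.61 and 7.45 in Ovol1 KO and, for DKO, 8.48 and 10.15. DKO 1 and DKO 2 were 1.67 apart but above the rest, with a difference of 1.83 from control that was not called (SE 0.56, adjusted p = 0.18). Mmp1a, Mmp1b, Mmp20 and Mmp7 differed between DKO and control by -0.10 to 0.40 and none was called. Mmp1a and Mmp1b are related genes that their probe sets may not separate. The cluster's median difference was 0.67, against 0.02 over all genes.

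**Figure D3:**
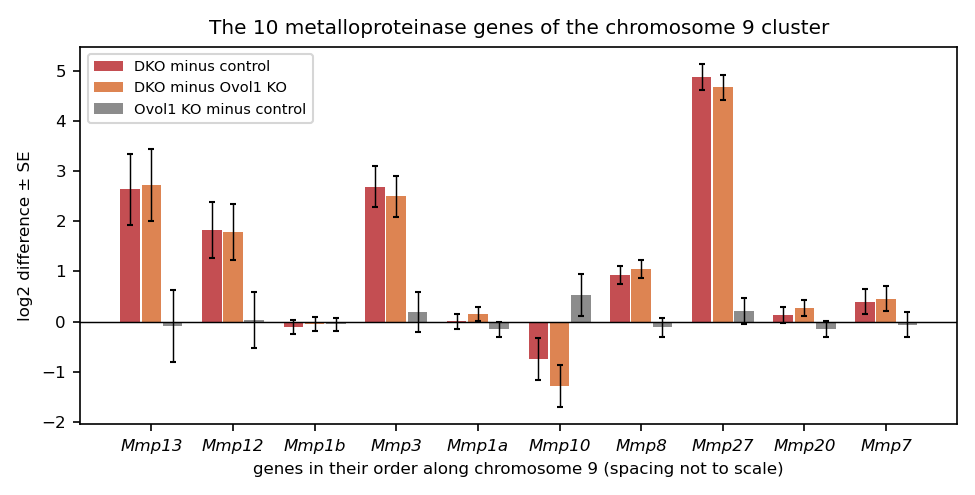
Difference in level, in log2 units with its standard error, for the 10 metalloproteinase genes in their order along chromosome 9, for the 3 comparisons. Mmp27 stands highest at 4.87 over control, followed by Mmp3, Mmp13, Mmp12 and Mmp8. Mmp10 is at -0.75, and the grey bars of Ovol1 KO against control stay between -0.15 and 0.53.

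The gelatinases come next. Mmp2, or gelatinase A, cuts denatured collagen and type IV collagen of basement membranes and is abundant in fibroblasts. Its levels were 8.65 and 8.50 in control, 8.18 and 8.47 in Ovol1 KO and, for DKO, 10.41 and 9.98. The DKO arrays were clearly apart from the other 4. DKO exceeded control by 1.62 (SE 0.22, adjusted p = 0.016), a 3.07-fold rise, and Ovol1 KO by 1.86 (SE 0.22, adjusted p = 0.012). Without DKO 1 the calls were lost at 1.39 (adjusted p = 0.073) and 1.63 (adjusted p = 0.059), and against Ovol1 KO 2 alone the difference was 1.73 (adjusted p = 0.12). With Xist as a covariate the values were 1.33 (adjusted p = 0.65) and 1.71 (adjusted p = 0.14). The adjusted p ran from 0.013 to 0.65 and from 0.0044 to 0.14 over the alternatives.

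Mmp9, or gelatinase B, shares those substrates and is made by keratinocytes and by myeloid cells. It lay at 6.93 and 5.75 in control, 6.40 and 5.29 in Ovol1 KO and, for DKO, 6.46 and 5.12, among the dimmest 30% of genes. The groups overlapped throughout, and the arrays separated by replicate number instead. Replicate 1 was higher by 1.17 in control, 1.11 in Ovol1 KO and, for DKO, 1.34, gaps that 95% of genes did not reach (0.78, 0.80 and 0.77 in the same groups). DKO against control was -0.55 (95% interval -1.92 to 0.83, adjusted p = 0.79). The sign turned without control 1 (0.04) and without DKO 2 (0.12), so no direction is given.

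Mmp14, the membrane-type enzyme that activates the Mmp2 proenzyme, had the smallest difference of the 10 members in each of the 3 comparisons. It measured 10.45 and 10.68 in control, 10.50 and 10.75 in Ovol1 KO and, for DKO, 10.47 and 10.72. The groups lay on top of each other, and replicate 2 was 0.23 to 0.25 higher in each. The difference was 0.03 in DKO against control, with a 95% interval from -0.41 to 0.46, and -0.03 in DKO against Ovol1 KO, from -0.47 to 0.40.

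Among the inhibitors Timp2 was called lower in DKO. It lay at 12.81 and 12.80 in control, 12.89 and 12.58 in Ovol1 KO and, for DKO, 11.11 and 10.94. Controls were 0.01 apart, and both DKO arrays were well below every other. Relative to control it fell by 1.79 (SE 0.13, adjusted p = 0.0017), a 3.45-fold decrease. Relative to Ovol1 KO the difference was -1.72 (SE 0.13, adjusted p = 0.0022). Against Ovol1 KO 2 alone it was -1.57 (adjusted p = 0.024). Left-out arrays moved it only between -1.87 and -1.68 against control and between -1.88 and -1.57 against Ovol1 KO, always called. With Xist as a covariate the difference from control was -1.47 (adjusted p = 0.16). Its adjusted p over the alternatives ran from 0.00086 to 0.16 against control and from 0.00033 to 0.029 against Ovol1 KO.

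Timp3 is held in the matrix and also inhibits adamalysin proteases. Its levels were 13.52 and 12.42 in control, 13.39 and 12.32 in Ovol1 KO and, for DKO, 11.74 and 11.59. Both DKO arrays were below the rest, while replicate 1 exceeded replicate 2 by 1.09 in control and 1.06 in Ovol1 KO. It was not called, at -1.31 in DKO against control (SE 0.42, adjusted p = 0.2). The DKO difference from Ovol1 KO was -1.19 (SE 0.42, adjusted p = 0.29). Without control 2 the first was -1.86 and called (adjusted p = 0.018, from 0.018 to 0.97 over the alternatives).

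Timp1, a secreted inhibitor that is induced in wounds, lies on the X chromosome. It measured 9.48 and 7.04 in control, 8.44 and 8.47 in Ovol1 KO and, for DKO, 9.34 and 9.62. The control arrays enclosed those of Ovol1 KO and 1 of the DKO arrays, with 2.44 between them. The 2 Ovol1 KO arrays, 7.38 apart in Xist and unlike in replicate number, differed by 0.03 in Timp1. The control arrays, 0.06 apart in Xist, differed by 2.44, and the part of Xist was not tested. DKO minus control was 1.22 (SE 0.68, adjusted p = 0.51), and DKO minus Ovol1 KO was 1.03 (SE 0.68, adjusted p = 0.58). The first value depended on which control array was kept, at 2.43 without control 1 and 0.003 without control 2.

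**Figure D4:**
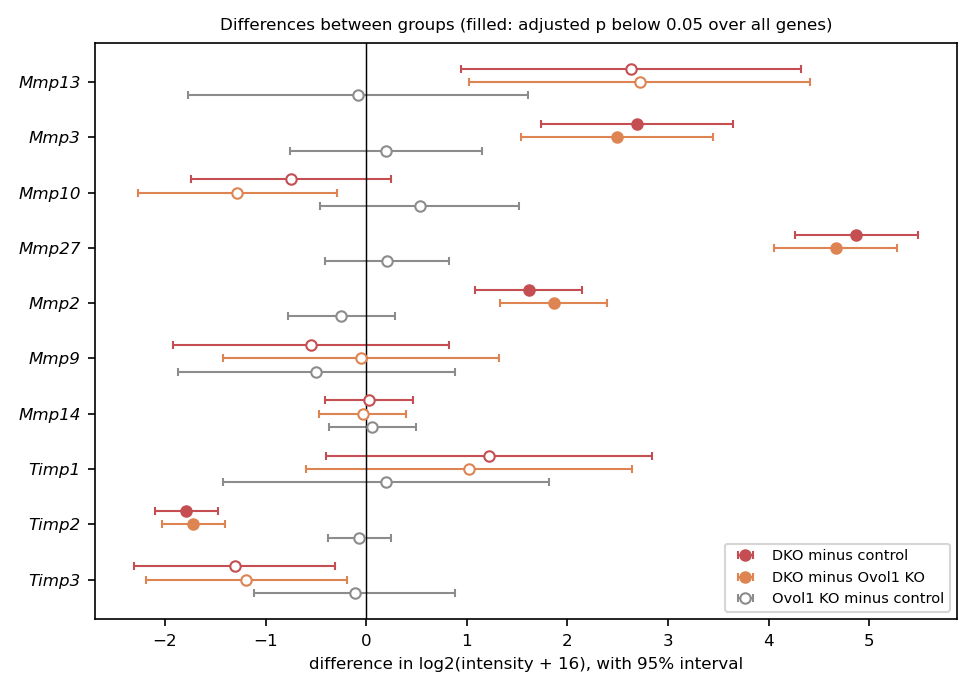
Differences between groups for the 10 members in log2 units, with 95% intervals from the limma fit; filled points had an adjusted p below 0.05 over all genes. Mmp27, Mmp3 and Mmp2 are filled on the right and Timp2 on the left in both DKO comparisons, and every interval of Ovol1 KO against control spans 0.

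Loss of Ovol1 alone was the second comparison. Of the 10 members 0 were called in limma in Ovol1 KO against control, 0 had an unadjusted p below 0.05, and 0% of all genes were called. Of all 19938 genes 162 had an unadjusted p below 0.05. Without any difference between the groups a share of 0.05 would, so the p-values of this comparison are too large and its missing calls are weak evidence. Differences ran from -0.49 for Mmp9 to 0.53 for Mmp10, with a median of -0.0044 beside -0.06 over all genes. The arrays of the 2 groups did not overlap for Mmp2, which was lower in Ovol1 KO, and for Mmp10, which was higher, that is for 2 of 10 members against 24.1% of all genes (5.8% higher, 18.3% lower). The 95% intervals come from the same fit and may be too wide here. They reached from -0.40 to 0.82 for Mmp27, -0.38 to 0.24 for Timp2 and -0.78 to 0.29 for Mmp2, but from -1.77 to 1.61 for Mmp13 and from -1.42 to 1.82 for Timp1.

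The third comparison, DKO against Ovol1 KO, bears on the added loss of Ovol2. Of these groups only DKO is described with K14-Cre, and Ovol1 KO 1 had a low Xist level, unlike both DKO arrays. These differences cannot be told apart from the loss of Ovol2 here. It shares the DKO arrays with the first, so that its values stand beside those above and do not repeat them independently. The same 4 genes passed, Mmp27, Mmp3 and Mmp2 higher and Timp2 lower, against 2.15% of all genes called (0.657% higher, 1.49% lower). The groups did not overlap in 8 of 10 members, 5 above and 3 below, beside 42.2% of all genes (26.1% above, 16% below), Mmp9 and Mmp14 being the other 2. The median of the members was 0.50, and that of all genes 0.09.

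For the member with the largest rise and that with the largest fall, the 3 genes with the most similar pattern over the 6 arrays were looked up. Levels of Syt12, Jarid2 and Rslcan18 followed those of Mmp27 at Pearson coefficients of 0.9971, 0.9958 and 0.9956. They rose from a control mean of 6.97 to 9.39 for Syt12 and from 10.40 to 11.97 for Jarid2, while Rslcan18 went from 8.07 to 8.36 and was not called (adjusted p = 0.51). Abcg1, Stk17b and Kdf1 followed Timp2 at 0.999, 0.9989 and 0.9974, with Abcg1 falling from 11.56 to 8.43. These are descriptions over 6 arrays of 3 shared groups, in which any gene that separates DKO from the rest correlates highly.

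Of 17 other metalloproteinase and inhibitor genes measured, 1 was called higher in DKO against control and 0 lower, and the same held for DKO against Ovol1 KO. The counts of this list and the next ones stand beside 3.2% of all genes called in the first comparison and 2.15% in the other, and with lists this short nothing is read from them. That gene was Mmp8 in both. Their median difference from control was 0.05. Reck, a membrane inhibitor of metalloproteinases, differed by 0.05 and Timp4 by 0.24. Of 26 adamalysin genes (median 0.07) 0 were called higher and 1 lower against control, Adam12, which lay at 10.40 and 9.40 in control, 10.24 and 9.06 in Ovol1 KO and, for DKO, 7.57 and 6.32. Its difference was -2.95 (adjusted p = 0.043), a call lost with each array but control 2 left out (-3.55 to -2.37), and against Ovol1 KO it was -2.71 (adjusted p = 0.07). Adam10 and Adam17, the main shedding proteases of the cell surface, differed from control by 0.58 (adjusted p = 0.074) and 0.32 (adjusted p = 0.42).

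Activation of proenzymes runs through plasmin and furin. Of 14 measured genes of this list (median -0.10) 0 were called higher and 2 lower in DKO against control. Plaur, the urokinase receptor, differed by -3.87 (adjusted p = 0.019) and Plau, urokinase itself, by -1.33 (adjusted p = 0.032). Plaur lost its call without DKO 1 (-3.50) or DKO 2 (-4.25), and Plau without control 1 (-1.35), either Ovol1 KO array (-1.33 each) or DKO 1 (-1.01). Against Ovol1 KO only Plaur passed, at -3.26 (adjusted p = 0.042), and did not without any 1 of the 4 arrays compared (-3.95 to -2.57). Furin, which activates membrane-type enzymes, differed from control by -0.52 (adjusted p = 0.17). Of 13 binding partners and clearance receptors (median -0.02) 1 was called lower in both DKO comparisons, Thbs1, which encodes thrombospondin 1, a matrix protein that binds Mmp2. It differed by -1.29 from control (adjusted p = 0.017) and by -1.17 from Ovol1 KO (adjusted p = 0.029), the latter lost without Ovol1 KO 1 (-1.10) or Ovol1 KO 2 (-1.25). Bsg, the cell surface inducer of metalloproteinases, differed from control by 0.05.

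Growth factors and cytokines are known inducers of these enzymes. Of 16 measured ligand genes 0 were called higher and 3 lower in DKO against control, where calls over all genes also lay mostly on the lower side (451 lower, 188 higher): Tgfb2 by -2.41 (adjusted p = 0.01), Tgfa by -1.59 (adjusted p = 0.033) and Il1a by -3.87 (adjusted p = 0.038). Their median was -0.48. Il1b and Il6 lay at 4.74 to 6.63 on all arrays. Tgfb2 alone passed against Ovol1 KO, at -2.18 (adjusted p = 0.018). Calls of Tgfb2 were lost without either DKO array (-2.31 and -2.51 against control, -2.09 and -2.28 against Ovol1 KO). Tgfa lost its call without control 1 (-1.41), DKO 1 (-1.74) or DKO 2 (-1.45), and Il1a without control 1 (-3.46), either Ovol1 KO array (-3.89 and -3.87) or DKO 1 (-2.86). Of 14 AP-1, Ets and Runx regulators (median -0.27) 1 was called, Runx1, with differences of -1.51 against control (adjusted p = 0.017) and -1.60 against Ovol1 KO (adjusted p = 0.017). Without DKO 1 the calls were lost (-1.33 and -1.42), and against Ovol1 KO also without Ovol1 KO 1 (-1.39). The AP-1 subunit genes Fos, Fosb, Fosl1, Fosl2, Jun, Junb and Jund differed from control by -1.09 to 0.11 and none was called. Of 19 matrix substrates (median -0.35) 1 was called higher and 1 lower against control. Postn, or periostin, differed by 4.16 (adjusted p = 0.007) and Fn1, or fibronectin, by -1.92 (adjusted p = 0.036). Postn was not called without DKO 1 (3.80), and Fn1 not without control 1 (-1.74), DKO 1 (-1.54) or DKO 2 (-2.27). Only Postn passed against Ovol1 KO, at 4.37 (adjusted p = 0.0065), and did not without either Ovol1 KO array (4.53 and 4.23) or DKO 1 (4.02). The type IV collagen genes Col4a1 and Col4a2 differed from control by -0.78 and -1.20 without being called.

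For the called genes of these 7 lists, the lost calls above are those with an array left out. With Xist as a covariate, each of their calls in DKO against control was lost, and other alternatives took away some. In Ovol1 KO against control 0 genes of these lists were called in limma. The smallest p in each belonged to Mmp17 (-0.24), Adamts18 (-0.22), Serpinb2 (0.20), Lcn2 (-0.33), Hgf (-0.23), Etv4 (-0.57) and Fn1 (-0.50), each with an adjusted p = 1.

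Metalloproteinases are also made by fibroblasts and blood-derived cells, so markers of other cells were read on the same arrays. The basal keratins were high on every array, with Krt5 at 13.68 to 13.94 and Krt14 at 13.61 to 13.67. Of 10 keratinocyte markers 2 were called higher in DKO against control, Krt10 and Krt1, and 0 lower, with summed intensities of 67740 to 68130 in control, 67660 to 68860 in Ovol1 KO and, for DKO, 83770 to 111500. The summed intensity of 11 fibroblast markers was 2132 to 2690 for control, 1922 to 2647 for Ovol1 KO and 3614 to 4656 for DKO. Thy1 was the brightest of them. Without it the other 10 summed to 1776 to 1869 for control, 1709 to 2004 for Ovol1 KO and, for DKO 1 and DKO 2, 1634 and 2270. DKO 1 was then below both controls and DKO 2 above them. Of the 11, 0 were called higher and 1 lower (Pdgfra, -1.06), with a median of 0.12. Thy1 stood at 9.86 and 8.12 in control and 10.96 and 11.23 in DKO, and Dcn at 7.22 and 7.72 against 7.87 and 8.73. Col1a1 lay at 8.43 and 8.55 against 8.47 and 8.91, and Lum at 5.24 and 5.45 against 5.02 and 5.28. DKO did not overlap control in 3 of the 11 above and 4 below, beside 23.1% and 21.5% of all genes. The part of fibroblasts in these results was not tested.

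Of 10 macrophage and dendritic cell markers 0 were called in DKO against control in limma, with summed intensities of 4126 to 6570 in control, 3416 to 5683 in Ovol1 KO and, for DKO, 4585 to 5019 and a median difference of -0.01. Cd68, a lysosomal protein gene, made most of these sums, at 11.37 to 12.52 on the 6 arrays. Without it the other 9 markers summed to 729 to 889 in control, 787 to 793 in Ovol1 KO and, for DKO, 753 to 800. These 9 lay between 5.63 and 8.07, Csf1r being the highest, at 7.08 to 8.07. Of 8 neutrophil markers 0 were called, at 1016 to 1079 in control, 920 to 1108 in Ovol1 KO and, for DKO, 1187 to 1687 (median 0.18), with Cxcr2 at 6.65 and 7.11 in control and 7.59 and 8.95 in DKO. DKO did not overlap control in 5 of these 8 above and 0 below, beside 23.1% and 21.5% of all genes. The part of macrophages and neutrophils in the Mmp8 and Mmp12 values was not tested. The remaining lists also had 0 genes called. Mast cell markers (6 genes, median 0.08) summed to 406 to 416 in control, 379 to 406 in Ovol1 KO and, for DKO, 413 to 514. Endothelial markers (6 genes, median -0.03) summed to 784 to 1940, 807 to 1449 and 493 to 496 in the same order, and without Kdr to 436 to 522, 427 to 480 and 399 to 412. Melanocyte markers (7 genes, median -0.77) summed to 1217 to 4868, 1130 to 6355 and 1027 to 1781, and muscle markers (7 genes, median -0.22) to 11120 to 12870, 8895 to 10600 and 6765 to 13770. Melanocyte sums were higher in replicate 1 than in replicate 2 of every group. So were Mmp9, Timp2 and Timp3, with Timp3 only 0.14 apart in DKO and Timp2 0.01 to 0.31 apart. A link to melanocytes was not tested. Unadjusted p-values below 0.05 numbered 2888 over all genes in DKO against control.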

How the data were processed

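The authors' deposited table gives 1 intensity per probe set and array on a linear scale, for 35556 probe sets and 6 Affymetrix arrays. Affymetrix Expression Console 1.1.1 and PLIER 2.0 stand, with no role, in the submitters' processing notes. Array medians ran from 174.2 to 203.6 and quartiles of log2(intensity + 16) differed by up to 0.218, so levels were quantile-normalized. The number of arrays limits the precision.

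Of the probe sets, 21789 had 1 platform symbol, 1621 several and 12146 none, which left 19938 genes by brightest probe set. RefSeq matched 21698 of these probe sets by Entrez identifier and changed 0 symbols. limma 3.58.1 (R 4.3.3) fitted group means and an intensity trend of the variance, with 3 residual degrees of freedom shared by all groups and Benjamini-Hochberg adjustment, after being tested on simulated data.

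The members, lists, motifs and alternatives were chosen with earlier results of these data known. Named are all members, up to 4 called genes per list by smallest p (or the 1 with the smallest) and the 3 genes most like Mmp27 and Timp2. Other genes were named after their values were seen. Alternatives were offsets of 1 and 64, values as deposited, the dimmest 30% of genes dropped, eBayes without trend or robust, probe sets averaged, a fit to the 4 arrays of a comparison, a replicate block, an Xist covariate and each array left out, where a lone array is assumed to vary like the other groups.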

Additional observations from a re-analysis of the deposited data

How the results depend on the processing

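Of 477 member values under alternatives, 427 kept their direction and their side of the threshold, 15 lost a call, 7 gained one and 28 changed sign. Mmp27 and Timp2 kept both calls in all alternatives but one, the Xist covariate in DKO against control. That covariate rests almost wholly on the 2 Ovol1 KO arrays, which also differ in replicate number. With it, the members called fell to 0 of 10 in DKO against control and 2 in DKO against Ovol1 KO, and the genes called to 8 and 74, against 639 and 429. It turned the sign of Mmp9 (0.60) and Mmp14 (-0.23) in DKO against control, of Mmp9 (0.054), Mmp13 (0.50), Mmp14 (-0.062), Timp2 (0.084) and Timp3 (0.40) in Ovol1 KO against control, and of Mmp9 (0.54) in DKO against Ovol1 KO.

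With the replicate block, 1069 and 805 genes were called in the DKO comparisons, and Timp3 passed in DKO against control (-1.31, adjusted p = 0.04). The block was not part of the main fit, because the labels tie the numbers to no shared litter or day. The values do show shared gaps, most of all between control and Ovol1 KO, and the main fit counts them as spread. In DKO against control the SE of Mmp9 was 0.58 in the main fit and 0.13 with the block. Deviations by replicate number correlated at 0.687 between control and Ovol1 KO, 0.151 between control and DKO and 0.0875 between Ovol1 KO and DKO. A fit of only the 4 arrays compared called 738 genes in DKO against Ovol1 KO, Mmp13 among them (adjusted p = 0.0094).

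With single arrays left out, members called ran from 2 to 6 in DKO against control and from 2 to 5 in DKO against Ovol1 KO, and genes called from 255 (without DKO 1; 309 without DKO 2) to 733 and from 86 (without Ovol1 KO 1) to 734 (without control 1), with 0 to 4 in Ovol1 KO against control. In DKO against Ovol1 KO every single array moved the count of genes by more than 1.5 times: 195 without DKO 1, 216 without Ovol1 KO 2, 235 without DKO 2 and 728 without control 2. Signs turned for Mmp9 (-1.23 to 0.12) and Mmp14 (-0.10 to 0.15) in DKO against control and for Mmp9 (-0.73 to 0.61) and Mmp14 (-0.16 to 0.092) in DKO against Ovol1 KO. In Ovol1 KO against control they turned for Mmp3 (-0.33 to 0.72), Mmp9 (-1.08 to 0.092), Mmp13 (-1.10 to 0.93), Mmp14 (-0.064 to 0.19), Mmp27 (-0.10 to 0.51), Timp1 (-1.03 to 1.41), Timp2 (-0.23 to 0.085) and Timp3 (-0.67 to 0.44). The causes were not tested. Without quantile normalization the median over all genes moved by less than 0.1, and Mmp9 has no value with the dimmest 30% left out.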
